A study of Mus musculus with 12 samples.

Results

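Versican, the hyaluronan synthase Has2, 4 proteases of the ADAMTS family, 2 matrix metalloproteases and 2 of their tissue inhibitors were followed in the hand and foot plates of the mouse embryo. They are 10 genes (Vcan, Has2, Adamts1, Adamts5, Adamts9, Adamts20, Mmp2, Mmp14, Timp2 and Timp3) of the 18194 with a probe set of their own on the arrays, and they were chosen as every probe set annotated to exactly 1 of these symbols. That gave 34 probe sets, 22 of them A and 12 of them B array probe sets. Of these, 29 passed the signal filter, 21 of the A and 8 of the B design, each of them on all 6 arrays of its design. The other 5 had a scaled signal of at least 100 on 1 array or on none, and have no test.

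Versican is a large chondroitin sulphate proteoglycan that binds hyaluronan and forms the soft, hydrated matrix between the cells of early limb mesenchyme and of the webs between the digits. Has2 makes the hyaluronan. Adamts1, Adamts5, Adamts9 and Adamts20 are secreted metalloproteases that can cut versican, and in mice the loss of Adamts5, Adamts9 and Adamts20 in combination leaves the interdigital webs in place. Mmp14 sits in the cell membrane and activates the secreted gelatinase Mmp2, in a complex for which Timp2 serves as the adaptor. Timp3 is the tissue inhibitor that binds to the matrix itself, and it inhibits Adamts5 as well as matrix metalloproteases.

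RNA came from autopods of wild-type mouse embryos at E12.5, with 3 hindlimb samples (12, 14 and 26) and 3 forelimb samples (11, 13 and 25). For each sample there is 1 Affymetrix MOE430 A and 1 MOE430 B GeneChip, 12 arrays in all. Both array titles of hindlimb 12 hold an extra letter B that those of hindlimb 14 and 26 lack. Neither strain nor treatment is given in the labels, and nothing there says whether a sample was 1 embryo or a pool, so the p-values speak of the spread among these samples alone, which may be technical. Tbx5, the T-box factor of the forelimb, had scaled signals of 8.0, 13.9 and 9.4 in hindlimb samples 12, 14 and 26, against 474, 479 and 554.6 in forelimb samples 11, 13 and 25 on its probe set 1425694_at. The A array of forelimb 11 was placed by its title, since its tissue label names no limb, and its 474 is close to the 479 of forelimb 13. On a further Tbx5 probe set, 1425695_at, hindlimb 14 had 173.8, against 29.3 and 29.7 in hindlimb 12 and 26, and the forelimb samples had 1145 to 1381. Every tested Pitx1 and Tbx4 probe set had all hindlimb above all forelimb samples, although Tbx4 on the A array had a limma adjusted p of 0.0514. Signals are MAS5.0 values scaled to one trimmed mean per design and are compared only within a probe set. Differences are log2 hindlimb minus forelimb of log2(signal + 32) with the standard error of limma, a scale on which changes of dim probe sets come out too small. In whole tissue, fewer cells of a type and less RNA per cell cannot be told apart.

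The lower hindlimb signals lay with Timp3, Adamts5 and Mmp2, while versican and Has2 showed no common direction. All 4 Timp3 probe sets gave negative differences, of -0.81 to -0.42, and so did the 3 tested probe sets of Adamts5 (-0.46 to -0.27), the pair of Mmp2 (-0.37 and -0.27) and the 5 of Timp2 (-0.62 to -0.17). By limma, 0 of the 29 probe sets had an adjusted p under 0.05, where 0.0326% of all tested probe sets of the A array and 0.0117% of the B array did. Their smallest adjusted p was 0.456 (A array) and 0.775 (B array). At an unadjusted p under 0.05 with hindlimb lower stood 8 of 21 probe sets on the A array, against 3.69% of all tested, and 1 of 8 on the B array, against 3.21%. None stood there with hindlimb higher, against 1.85% and 2.33%. These 9 probe sets belong to 4 genes (Timp3, Mmp2, Adamts5 and Timp2), and probe sets of 1 gene read the same RNA, so they are not separate observations. All 3 hindlimb samples lay below all 3 forelimb samples on 8 of 21 probe sets on the A array, against 6.1% of all tested, and on 1 of 8 on the B array, against 6.14%. No probe set had the reverse order, against 4.94% and 4.81%. Negative values were found for 18 of 21 probe sets on the A array and for 5 of 8 on the B array, against 52.2% of all tested in both designs. The median difference was -0.26 over the 21 probe sets on the A array, beside -0.01 over all tested, and -0.08 over the 8 on the B array, beside -0.01.

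**Figure D1:**
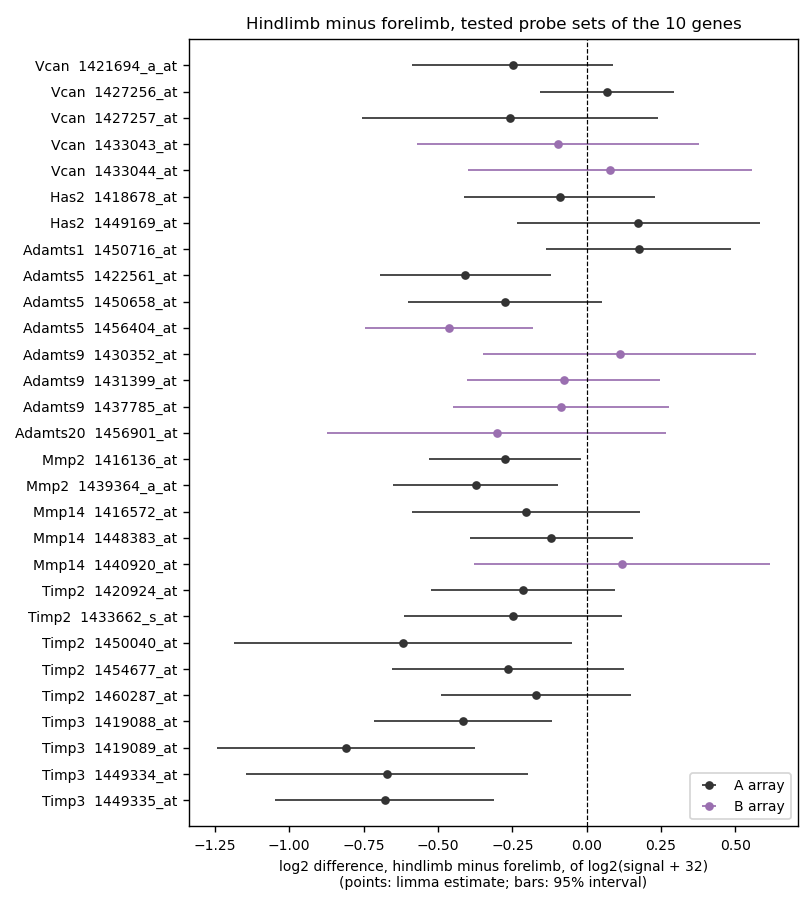
Log2 difference, hindlimb minus forelimb, of log2(signal + 32) for the 29 tested probe sets of the 10 genes; points are limma estimates, bars 95% intervals, and colours the array design. The intervals of the 4 Timp3 probe sets, 2 of 3 Adamts5 probe sets, both Mmp2 probe sets and 1 Timp2 probe set lie wholly below 0, and none lies wholly above it.

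Versican is the matrix substrate on which the ADAMTS proteases act, and 5 of its 8 probe sets were tested. On 1427256_at the signals were 5010.0, 4624 and 4121 in hindlimb samples 12, 14 and 26, against 4562, 4244 and 4274 in forelimb samples 11, 13 and 25. The limbs overlapped there, and the difference was 0.07 ± 0.10 (95% interval -0.16 to 0.29, limma adjusted p = 0.992). On 1421694_a_at the signals were 2229, 1682 and 1809.8 in the hindlimb samples, against 2670.5, 1872 and 2294 in the forelimb samples, with a difference of -0.25 ± 0.15 (interval -0.59 to 0.09, adjusted p = 0.952). Hindlimb 12 lay within the forelimb range on this probe set, and hindlimb 14 and 26 lay below it. On 1427257_at the hindlimb samples were far apart, with 2028, 1079.8 and 965, whereas the forelimb samples were close together, with 1572, 1512 and 1546. Hindlimb 12 was above every forelimb sample and hindlimb 14 and 26 were below every one, and the difference was -0.26 ± 0.23 (adjusted p = 0.97). Without hindlimb 12 the difference was -0.58 (limma adjusted p = 0.256), and without hindlimb 26 it was -0.06.

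The 3 A array probe sets of Vcan thus did not give 1 answer: 1427256_at had a positive value, and the other 2 had negative values of about the same size. Their tests do not compare the probe sets with each other. On the B array 1433043_at gave -0.10 ± 0.21, with signals of 339 to 519 in hindlimb and 409.9 to 568 in forelimb. The last tested one, 1433044_at, gave 0.08 ± 0.22, with 575 to 923 in hindlimb and 513 to 751 in forelimb, and hindlimb 12 was again the highest of the 6. The remaining 3 were dim: 1447586_at had 17.9 to 21.4 in hindlimb and 23.6 to 43.6 in forelimb, 1447887_x_at had 7.9 to 48.6 in hindlimb and 57.8 to 183 in forelimb, and 1459767_x_at had 31.4 to 48.6 in hindlimb and 46.4 to 190.0 in forelimb. No difference is given for these 3, since none reached 100 on more than 1 array.

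Has2, the main hyaluronan synthase of the embryo, was measured by a pair of probe sets on the A array. On 1418678_at the signals were 591, 536 and 622 in the hindlimb samples, against 541, 602 and 738 in the forelimb samples. On 1449169_at they were 439.9, 451 and 508 in the hindlimb samples, against 323, 378 and 559 in the forelimb samples. Forelimb 25 was the highest of the 6 samples and forelimb 11 among the lowest on both, so that the forelimb samples spanned most of the hindlimb range. The differences were -0.09 ± 0.15 (interval -0.41 to 0.23) and 0.17 ± 0.18 (interval -0.24 to 0.58), with limma adjusted p of 0.993 and 0.978. The first turned to 0.03 without forelimb 25.

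Among the ADAMTS proteases, Adamts5, a strong cutter of aggrecan and versican, had hindlimb signals below forelimb on every tested probe set and on both array designs. On 1422561_at the signals were 590.2, 646 and 559 in hindlimb samples 12, 14 and 26, against 745, 894 and 778 in forelimb samples 11, 13 and 25. On 1450658_at they were 195, 256 and 244 in the hindlimb samples, against 289, 275 and 291 in the forelimb samples. On the B array, 1456404_at had 1673, 1443 and 1630.5 in the hindlimb samples, against 2270.4, 1976 and 2338 in the forelimb samples. The limbs did not overlap on any of these 3 probe sets. The differences were -0.41 ± 0.13 (interval -0.70 to -0.12, limma adjusted p = 0.633), -0.27 ± 0.15 (interval -0.60 to 0.05, adjusted p = 0.94) and -0.46 ± 0.13 (interval -0.75 to -0.18, adjusted p = 0.775). Hindlimb over forelimb this is 0.753, 0.827 and 0.725 times on the scale with the pseudocount. The A and B arrays of a number were read as the same sample, so the 2 designs repeat the measurement and not the embryos. The remaining Adamts5 probe set, 1456969_at on the B array, was dim, with means of 72.1 ± 33.2 in hindlimb and 63.6 ± 40.0 in forelimb (SD, n = 3 each).

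The other 3 ADAMTS genes had overlapping limbs. Adamts1, a protease that also cuts versican, neighbours Adamts5 in the genome with no protein-coding gene annotated between them. Its 1 probe set, 1450716_at, had signals of 1009, 1347 and 1249 in the hindlimb samples, against 949.9, 1084 and 1135 in the forelimb samples. Hindlimb 14 and 26 lay above every forelimb sample and hindlimb 12 did not, and the difference was 0.17 ± 0.14 (interval -0.14 to 0.48, limma adjusted p = 0.965). Whether the neighbours differ from each other in their limb difference was not tested. Adamts9, a protease of the cell surface and matrix, had 3 probe sets on the B array. On 1437785_at the signals were 2575, 1646 and 1868 in the hindlimb samples, against 2019, 2298 and 2049.7 in the forelimb samples, with the highest and the lowest of the 6 both in hindlimb. The difference on this probe set was -0.09 ± 0.16. On 1431399_at the signals were 946, 1018 and 1222 in the hindlimb samples, against 1168, 1157 and 1028 in the forelimb samples, with a difference of -0.08 ± 0.15. On 1430352_at the difference was 0.11 ± 0.21, and forelimb 13 (1261) stood apart from forelimb 11 and 25 (744 and 739). The limma adjusted p was 0.964 on each of the 3. Adamts20, the close relative of Adamts9 that is mutated in the belted mouse, was measured by 1456901_at with 336, 286 and 225 in the hindlimb samples, against 308, 284 and 491 in the forelimb samples. Forelimb 25 alone was far above the rest, the difference was -0.30 ± 0.26 (interval -0.87 to 0.27, adjusted p = 0.929), and without forelimb 25 it was -0.08.

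**Figure D2:**
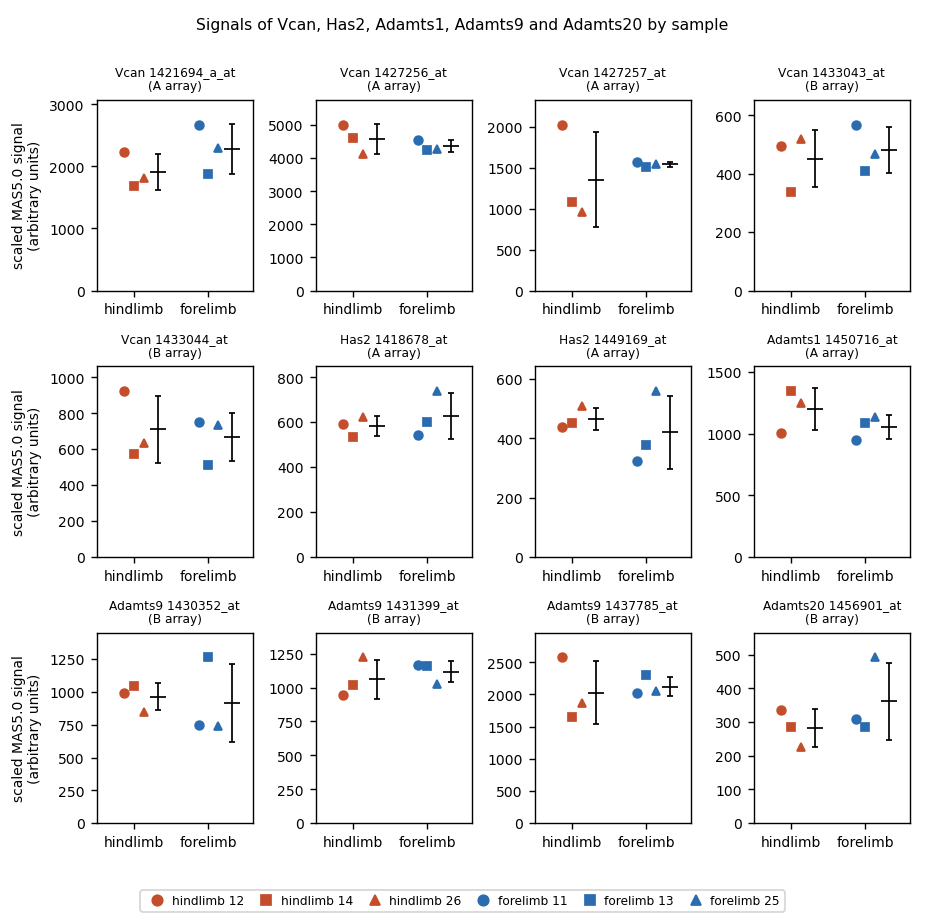
Scaled MAS5.0 signal (arbitrary units) by sample for the tested probe sets of Vcan, Has2, Adamts1, Adamts9 and Adamts20, with hindlimb left of forelimb; each marker is 1 sample, and the black bar is the mean with its SD (n = 3). The limbs overlap on all 12 probe sets, and on Vcan 1427257_at hindlimb 12 lies above and hindlimb 14 and 26 below all forelimb samples.

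Mmp2, the secreted gelatinase of connective tissue, had all hindlimb samples below all forelimb samples on both of its probe sets. On 1416136_at the signals were 2105, 2523 and 2553 in hindlimb samples 12, 14 and 26, against 2756, 3136 and 2796 in forelimb samples 11, 13 and 25. On 1439364_a_at they were 1954, 1591 and 1896 in the hindlimb samples, against 2133, 2618 and 2320.1 in the forelimb samples. The differences were -0.27 ± 0.12 (interval -0.53 to -0.02, limma adjusted p = 0.868) and -0.37 ± 0.13 (interval -0.65 to -0.10, adjusted p = 0.682). The lowest hindlimb sample was 12 on the first and 14 on the second.

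Mmp14, the membrane protease that activates Mmp2, had overlapping limbs on each of its 3 probe sets. On 1448383_at the signals were 1049.5, 939.6 and 1039.7 in the hindlimb samples, against 1039.8, 1039 and 1224 in the forelimb samples. On 1416572_at they were 349.8, 398 and 354 in the hindlimb samples, against 531, 325 and 449 in the forelimb samples, and the forelimb samples spanned all hindlimb values. The differences were -0.12 ± 0.12 (interval -0.39 to 0.16) and -0.20 ± 0.17 (interval -0.59 to 0.18) on the A array. The second of these was -0.06 without forelimb 11 and -0.38 without forelimb 13. The probe set 1440920_at on the B array gave 0.12 ± 0.23 (interval -0.38 to 0.62), with 403 to 598 in hindlimb and 337 to 532 in forelimb. Adjusted p in limma was 0.964 to 0.976 for the 3. The intervals of the 3 Mmp14 probe sets also hold both Mmp2 values, and whether the limb differences of the 2 genes differ was not tested.

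**Figure D3:**
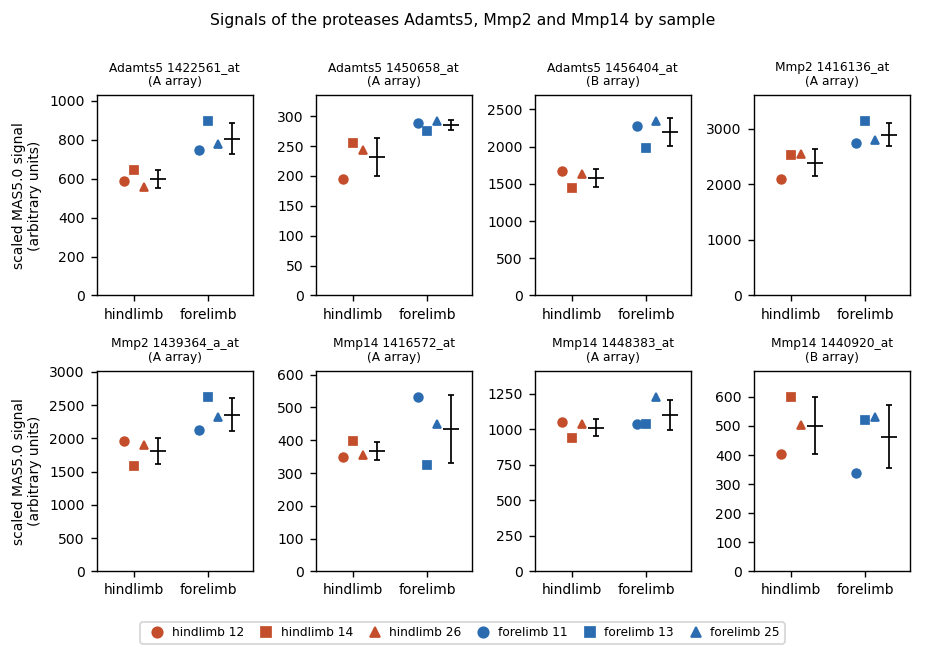
Scaled MAS5.0 signal (arbitrary units) by sample for the tested probe sets of Adamts5, Mmp2 and Mmp14, with hindlimb left of forelimb; each marker is 1 sample, and the black bar is the mean with its SD (n = 3). Hindlimb lies below forelimb without overlap on the 3 Adamts5 and both Mmp2 probe sets, and the limbs overlap on the 3 Mmp14 probe sets.

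Timp3, the inhibitor held in the matrix, had the 3 most negative differences among the 29 tested probe sets. On 1419089_at the signals were 538, 302 and 484 in hindlimb samples 12, 14 and 26, against 876, 776 and 687 in forelimb samples 11, 13 and 25. On 1449335_at they were 679.6, 861 and 554 in the hindlimb samples, against 1266, 1107 and 1003 in the forelimb samples. On 1419088_at they were 295, 260.1 and 279 in the hindlimb samples, against 419, 366 and 362 in the forelimb samples. The limbs were apart on these 3 probe sets. On 1449334_at the signals were 152, 202 and 288 in the hindlimb samples, against 362, 418 and 281 in the forelimb samples, and hindlimb 26 lay just above forelimb 25.

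On 1419089_at the mean signal of Timp3 was 441 ± 124 in hindlimb and 779.7 ± 94.5 in forelimb (SD, n = 3 each), and on 1449335_at it was 698 ± 154 in hindlimb and 1125 ± 132 in forelimb (SD, n = 3 each). The differences were -0.81 ± 0.20 on 1419089_at (interval -1.24 to -0.38), -0.68 ± 0.17 on 1449335_at (interval -1.05 to -0.31), -0.67 ± 0.21 on 1449334_at (interval -1.14 to -0.20) and -0.42 ± 0.14 on 1419088_at (interval -0.71 to -0.12). These are 0.571, 0.624, 0.628 and 0.75 times the forelimb level on the scale with the pseudocount. All 4 intervals lie below 0, but adjusted over the 15338 tested probe sets the limma p was 0.456 for the first pair and 0.638 and 0.647 for the others, none past the threshold. By unadjusted p, 1419089_at ranked 58 and 1449335_at ranked 61 among all tested on the A array. In the gene annotation Timp3 lies within another gene, Syn3, which encodes a synapsin.

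Timp2, the inhibitor that also bridges Mmp14 and Mmp2, had negative differences on all 5 tested probe sets, and 4 of these lay nearer 0 than any of Timp3. On 1450040_at the signals were 349, 140.1 and 184 in the hindlimb samples, against 362, 382 and 282 in the forelimb samples, so that hindlimb 12 was like the forelimb samples and hindlimb 14 and 26 were below them. The difference there was -0.62 ± 0.26 (interval -1.18 to -0.05, limma adjusted p = 0.863). It became -0.94 without hindlimb 12 (adjusted p = 0.231) and -0.37 without hindlimb 14 (adjusted p = 0.863). On 1420924_at, where the limbs were just apart, the signals were 324, 276 and 329.9 in the hindlimb samples, against 364, 332 and 398 in the forelimb samples, with a difference of -0.22 ± 0.14.

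The other 3 tested Timp2 probe sets, 1454677_at, 1433662_s_at and 1460287_at, had overlapping limbs. Their differences were -0.26 ± 0.18, -0.25 ± 0.17 and -0.17 ± 0.14, with limma adjusted p of 0.955, 0.955 and 0.966. On 1454677_at forelimb 13 alone was high, with 1692 against 1053 and 1083 in the other forelimb samples, and on 1433662_s_at forelimb 11 alone was, with 1336 against 929 and 915. Without the high sample these values were -0.05 and -0.07, and the difference of 1460287_at was -0.05 without hindlimb 26. The remaining Timp2 probe set, 1437081_at, was dim, with 5.3 to 13.7 in hindlimb and 7.9 to 47.8 in forelimb.

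**Figure D4:**
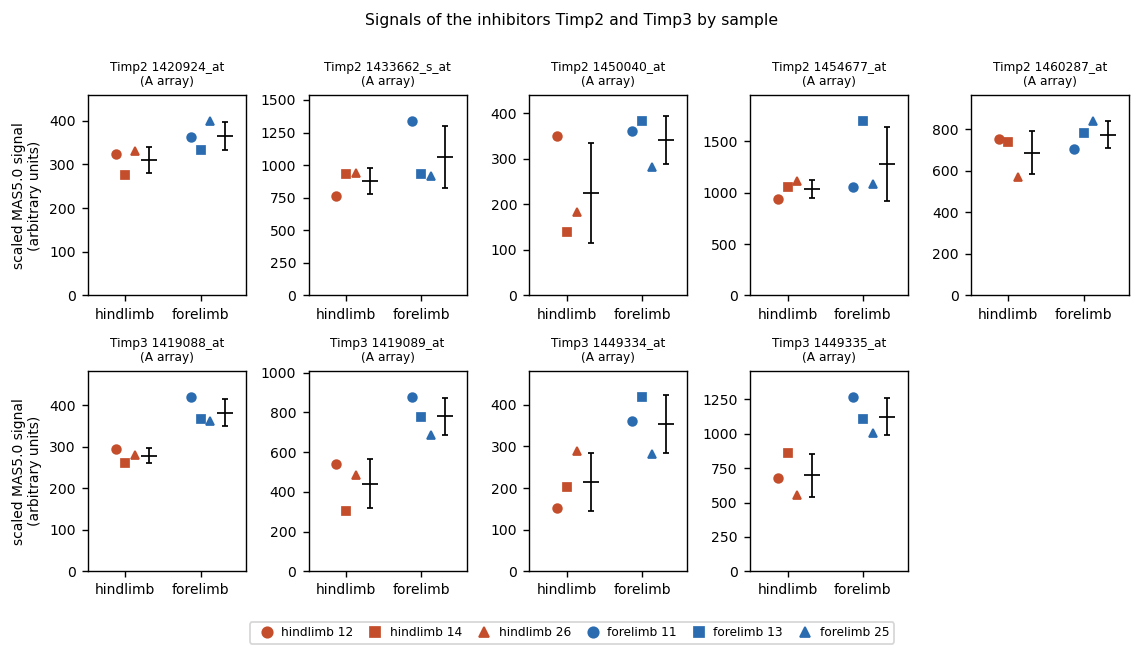
Scaled MAS5.0 signal (arbitrary units) by sample for the tested probe sets of Timp2 and Timp3 on the A array, with hindlimb left of forelimb; each marker is 1 sample, and the black bar is the mean with its SD (n = 3). The limbs do not overlap on 3 of 4 Timp3 probe sets and 1 of 5 Timp2 probe sets.

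The promoters of 3 members are given: Timp3, which had the 3 most negative differences, its paralogue Timp2, and Adamts1, whose limbs overlapped. Whether any promoter feature goes with a limb difference was not tested. The sequences are those of RefSeq (GRCm38.p6), 250 bases before to 50 after the annotated start, 5′ to 3′ on the gene's strand, and 7 of the 10 genes had an entry (all but Has2, Adamts5 and Mmp2). Capitals mark GC boxes (GGGCGG on either strand) and TATA boxes (TATAAA on either strand), and no GC box overlaps a TATA box.
Timp3, chr10:86300162-86300461, strand +: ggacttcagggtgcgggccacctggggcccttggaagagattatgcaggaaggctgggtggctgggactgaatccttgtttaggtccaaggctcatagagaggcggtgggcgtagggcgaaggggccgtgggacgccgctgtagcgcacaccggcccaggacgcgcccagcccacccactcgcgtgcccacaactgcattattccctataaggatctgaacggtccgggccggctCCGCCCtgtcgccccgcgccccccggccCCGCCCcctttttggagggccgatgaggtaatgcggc
Timp2, chr11:118355362-118355661, strand -: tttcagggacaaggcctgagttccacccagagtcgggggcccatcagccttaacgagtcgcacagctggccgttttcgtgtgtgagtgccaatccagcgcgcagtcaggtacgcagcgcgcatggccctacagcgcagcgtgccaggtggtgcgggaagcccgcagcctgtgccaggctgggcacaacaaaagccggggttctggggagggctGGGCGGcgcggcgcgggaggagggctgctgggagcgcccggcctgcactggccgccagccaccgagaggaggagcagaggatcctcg
Adamts1, chr16:85803064-85803363, strand -: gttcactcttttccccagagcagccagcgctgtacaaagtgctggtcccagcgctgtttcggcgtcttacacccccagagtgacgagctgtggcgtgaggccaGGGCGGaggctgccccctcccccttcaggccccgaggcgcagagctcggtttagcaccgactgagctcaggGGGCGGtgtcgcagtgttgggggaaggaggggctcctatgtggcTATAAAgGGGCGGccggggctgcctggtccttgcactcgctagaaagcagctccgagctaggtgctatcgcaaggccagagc
Timp3 holds 2 GC boxes, both on the opposite strand, the first beginning 15 bases before the start and the second 13 bases after it. Timp2 holds 1 GC box, and Adamts1 holds 3 and a TATA box that begins 32 bases before its start. All 7 members with an entry hold at least 1 GC box, a motif of 35.7% of the 32851 promoters of this length. Adamts1 alone of the 7 holds a TATA box, which 13.6% of all hold. The windows of the 7 hold neither AGGTGT, the core of the T-box site (in 13.7% of all promoters), nor TGANTCA, the AP-1 site with any base in its centre (in 7.81%), on either strand. GC content was 67.0% for Timp3, 68.7% for Timp2 and 64.7% for Adamts1, where the median of all promoters was 52.7%. A match is a description of these letters only.

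Other genes of matrix turnover were taken from 4 further lists, with the brightest tested probe set for each gene, and for none was the limma adjusted p under 0.05 on either array. At an unadjusted p under 0.05 stood 7 of 39 genes on the A array (6 with hindlimb lower, 1 higher) and 2 of 28 on the B array (both lower), against 3.69% lower and 1.85% higher of all tested probe sets on the A array and 3.21% and 2.33% on the B array. When the brightest probe set per gene was fitted, 565 of 8946 genes on the A array and 467 of 7768 on the B array stood there, in either direction. As background for the direction counts of these lists and of the markers below, 52.2% of all tested probe sets had negative values in each design. The median difference over all tested was -0.01 on either array. Of 12 other protease inhibitors and activators on the A array 10 had negative values, with a median of -0.23. Timp4, a further tissue inhibitor, had 69.7, 83.5 and 91.5 in hindlimb samples, against 194, 103 and 159 in forelimb samples, a difference of -0.67 ± 0.22 (limma adjusted p = 0.652). Its limbs did not overlap, although its hindlimb signals were under 100, so that it passed the filter through the forelimb alone. Reck, a membrane-anchored inhibitor of matrix metalloproteases, went the other way, with 685, 802 and 778 in hindlimb samples, against 588, 593 and 527 in forelimb samples and a difference of 0.39 ± 0.13 (adjusted p = 0.65). The inhibitors thus did not share 1 direction. The 4 genes of this list on the B array all had positive values (median 0.27), with Pcsk5, a proprotein convertase, at 0.35 ± 0.20 and Spock3 at 0.27 ± 0.27, limbs overlapping on both.

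Of the other ADAMTS and ADAMTS-like genes 2 of 5 had negative values on the A array (median 0.02) and 9 of 10 on the B array (median -0.20). Adamts4, an aggrecan- and versican-cutting protease, had 134, 190.5 and 179 in hindlimb samples, against 232, 243 and 201 in forelimb samples, with a difference of -0.37 ± 0.17 (limma adjusted p = 0.901) and -0.14 on its other tested probe set. Adamts7 gave 0.12 ± 0.19 on the A array, and among the B probe sets Adamtsl2 gave -0.28 ± 0.16 and Adamts6 -0.30 ± 0.20, with overlapping limbs on all 3. Of the other matrix metalloproteases only 6 (A array) and 1 (B array) were above the filter. On the A array 2 of these 6 had negative and 4 had positive values (median 0.09), and the 1 on the B array was negative. Mmp9, a gelatinase of bone-resorbing cells and leukocytes, had 131, 155 and 136 in hindlimb samples, against 116, 118 and 130.0 in forelimb samples, where the limbs were barely apart and the difference was 0.17 ± 0.17. Mmp11, stromelysin 3, gave -0.18 ± 0.15, and Mmp16 gave -0.02 ± 0.31 on the B array.

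Hyaluronan and versican partners had negative values for 12 of 16 genes on the A array (median -0.15) and 9 of 13 on the B array (median -0.14). Acan, the cartilage proteoglycan aggrecan, had 151, 114 and 151 in hindlimb samples, against 228, 255 and 258 in forelimb samples, with a difference of -0.72 ± 0.16 (limma adjusted p = 0.376). Tnc, the matrix glycoprotein tenascin C, gave -0.98 ± 0.25 on the A array (adjusted p = 0.496) and -1.07 ± 0.41 on the B array (adjusted p = 0.894). Its hindlimb signals were near the filter of 100, with 146, 98.4 and 128 on the A array and 109, 145 and 39.3 on the B array. The forelimb samples were far apart, with 415, 273 and 178 on the A array and 216, 286 and 178 on the B array. Chst11, a chondroitin sulphotransferase, had 1520.5, 1480.5 and 1405 in hindlimb samples, against 2165, 2295 and 1899 in forelimb samples, a difference of -0.52 ± 0.13 (adjusted p = 0.747). The limbs were apart on these 4 probe sets, which were named for their small p. Over the list, all hindlimb lay below all forelimb samples for 5 of 16 genes (A array) and 3 of 13 (B array). Of all tested probe sets, 6.1% and 6.14% did so. The reverse order was found for 0 genes of the list on either array, against 4.94% and 4.81%.

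Markers of tissue types are given beside these values, and their part in them was not tested. None of the tested markers had an adjusted p under 0.05 in limma on either array. Of 7 interdigital mesenchyme markers on the A array (Aldh1a2, Msx2, Bmp2, Bmp4, Bmp7, Rarb and Rdh10) all 7 had negative values and 5 an unadjusted p under 0.05 in limma, against 5.54% of all tested probe sets. Their summed signal was 5097 to 6242 in hindlimb and 7098 to 7568 in forelimb, and none was below 100 on all arrays. On the B array 1 of 2 was negative, with sums of 1769 to 2593 in hindlimb and 3013 to 3470 in forelimb. Hindlimb 12 had the highest hindlimb sum on both arrays, but it was the lowest of the 6 samples on Msx2 (809.5) and Bmp4 (871) on the A array. Rarb, a retinoic acid receptor of the interdigit, had 509.7, 212 and 209.5 in the hindlimb samples, against 574, 499 and 519 in the forelimb samples. Over the 21 tested probe sets of the 10 genes on the A array, hindlimb 12 was the highest hindlimb sample on 9 and the lowest on 8. Of 6 tested cartilage markers 4 were negative (median -0.46) and 3 had an unadjusted p under 0.05, with sums of 7518 to 9725 in hindlimb and 8937 to 10170 in forelimb, whereas on the B array 0 of 2 were negative (median 0.20). Col9a1, the brightest on the A array, and Hapln1 had 0.19 and 0.07, while Col2a1, Sox9, Matn4 and Acan had -0.61, -0.31, -0.79 and -0.72. The B array probe set of Sox9 was dim, with 12.1, 170.7 and 106.4 in the hindlimb samples, against 74.3, 173.5 and 9.3 in the forelimb samples. General limb mesenchyme markers (6 of 8 negative, median -0.10, none with an unadjusted p under 0.05) had sums of 15921 to 18799 in hindlimb and 16742 to 17954 in forelimb, and on the B array 1 of 4 was negative (median 0.06). The cartilage and limb mesenchyme sums overlapped between the limbs. Surface ectoderm sums were 3787 to 4482 in hindlimb and 4520 to 5733 in forelimb (5 of 9 negative, median -0.01, and 3 with an unadjusted p under 0.05). Krt5, Krt14 and Krt15 had -0.401, -0.827 and -1.38, while Krt8, Krt18, Trp63 and Cdh1 had positive values of 0.013 to 0.305. The B array sums of this list overlapped, with 674 to 1268 in hindlimb and 794 to 1403 in forelimb (2 of 2 negative, median -0.225).

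Sums of muscle markers were 1014 to 1299 in hindlimb and 1258 to 1759 in forelimb (5 of 5 tested negative, and Myf5 and Myf6 below 100 on all arrays). For endothelium they were 2062 to 2290 in hindlimb and 2243 to 2350 in forelimb (4 of 7 negative, Tie1 below 100). For macrophages they were 1640 to 1867 in hindlimb and 1703 to 1940 in forelimb (3 of 6 negative, C1qa below 100). Erythroid sums were 31439 to 34963 in hindlimb and 28019 to 30829 in forelimb (0 of 4 tested negative, Hba-a1 below 100 on all arrays). Of these 4, 2 had an unadjusted p under 0.05 in limma, against 5.54% of all tested probe sets on the A array. No muscle, endothelium or macrophage marker had an unadjusted p under 0.05 in limma, and the sums of these 3 lists overlapped between the limbs. The log2 ratio of 3′ to 5′ Gapdh signal, a sign of RNA quality, was -0.28 ± 0.02 in hindlimb and -0.18 ± 0.09 in forelimb on the A array (SD, n = 3 each; exact two-sided permutation p = 0.1, the smallest possible with 3 against 3). The same ratio for beta-actin was 0.24 ± 0.03 in hindlimb and 0.17 ± 0.08 in forelimb (exact p = 0.3), so the means of the 2 controls differed between the limbs in opposite directions. On the B array the Gapdh ratio was -0.14 ± 0.03 in hindlimb and -0.16 ± 0.09 in forelimb (exact p = 0.8), and that of beta-actin was 0.26 ± 0.06 in hindlimb and 0.27 ± 0.04 in forelimb (exact p = 0.9). The part of RNA quality in the differences was not tested.

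**Figure D5:**
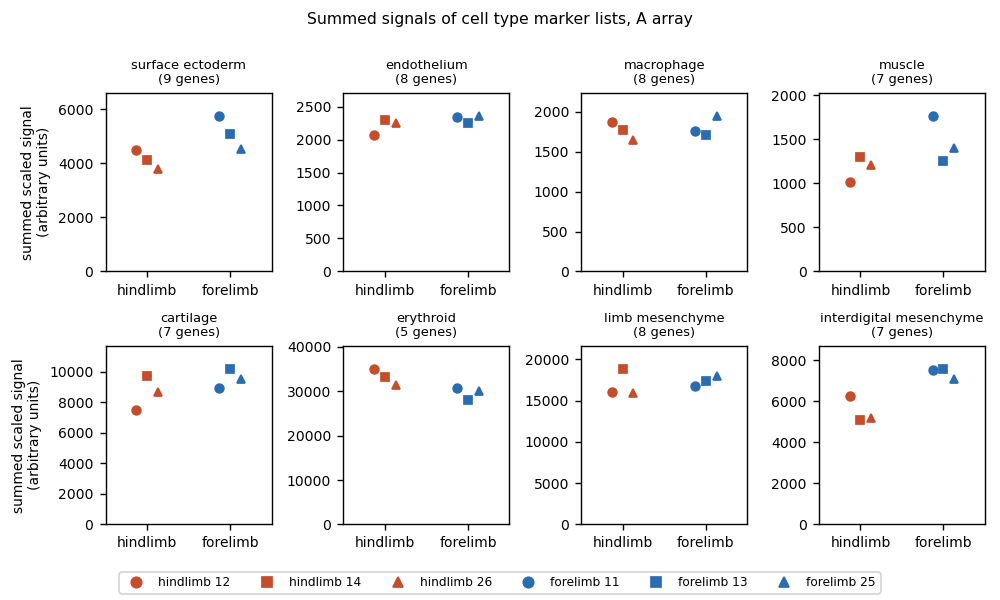
Summed scaled signal (arbitrary units) on the A array of the brightest probe set of each marker gene, by sample, for 8 cell type lists, with hindlimb left of forelimb; each marker is 1 sample. The sums of the limbs do not overlap for interdigital mesenchyme and surface ectoderm, where hindlimb is lower, and for erythroid genes, where hindlimb is higher. The surface ectoderm genes did not share 1 direction, with 5 of 9 negative and a median difference of -0.01.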

How the data were processed

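MAS5.0 signals per probe set were deposited by the authors as linear intensities, per the labels, except that the A array label of forelimb 11 lacks this note. As deposited, all A arrays had a 2% trimmed mean of 350.1 and all B arrays one of 70.0. The software version is not given in the sources used here, nor are detection calls. Each array was scaled to a trimmed mean of 500 (a factor of 1.43 on the A and 7.14 on the B array), which makes the filter less strict for the B design. Values were taken as log2(signal + 32). Probe sets with a signal of at least 100 on 3 or more of 6 arrays were kept (15338 of 22690 on the A array, 17145 of 22575 on the B array), without the 64 control probe sets of each. Hindlimb was compared with forelimb within a design by limma 3.58.1 in R 4.3.3 (a trended eBayes prior, two-sided tests, Benjamini-Hochberg over all tested probe sets of the design, threshold 0.05). With 3 arrays a limb, precision is limited by their number: standard errors had a median of 0.16 on the A and 0.23 on the B array. Symbols came from the platform annotation, updated through a RefSeq gene table (GRCm38.p6): 20393 A and 14674 B probe sets had 1 symbol, 691 and 245 several, 1606 and 7656 none.

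The members, lists, tests and alternatives were chosen with earlier results of these data known. Every member probe set is reported. From the further lists the 2 genes of smallest p per list and design are named, as none passed. The alternatives changed the pseudocount (1, 100), the filter (none, 200), the scaling (as deposited, quantile), the variance prior (no trend), the weights of arrays, the probe sets (the brightest per gene) and the samples (each left out in turn), or added a replicate block of consecutive sample numbers. The script was checked on simulated data. Plots used matplotlib 3.10.9 (Python 3.11.15).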

Additional observations from a re-analysis of the deposited data

How the results depend on the processing

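By limma, 0 of the 29 probe sets had an adjusted p under 0.05 under any of the 10 alternatives or the 6 fits with a sample left out, on either array; the lowest adjusted p was 0.201 on the A array (array weights, Timp3 1449335_at) and 0.601 on the B array (replicate block, Adamts5 1456404_at). At an unadjusted p under 0.05 stood 7 to 9 of the 21 probe sets on the A array with a sample left out, against 8 with all samples, and 1 of 8 on the B array in every such fit. Of all tested probe sets, 619 to 975 of 15338 on the A array and 793 to 1088 of 17145 on the B array stood there in these fits. Changing the filter, the trend or the probe sets, or adding the block, leaves a difference as it is, so its sign there was fixed in advance. With these settings counted, all 271 member values under the alternatives that keep every sample had the sign given above, and 164 of 174 did with a sample left out. The other 10 belong to 6 probe sets, whose values with a sample left out ranged from -0.20 to 0.082 (Vcan 1433043_at), from -0.12 to 0.21 (Vcan 1433044_at), from -0.19 to 0.027 (Has2 1418678_at), from -0.015 to 0.36 (Adamts9 1430352_at), from -0.27 to 0.050 (Adamts9 1437785_at) and from -0.081 to 0.26 (Mmp14 1440920_at). With a sample left out, 21 of the 29 differences moved by over 1.5 times or turned in at least 1 fit, and 15 of these kept their sign. The 8 that did not move so far were the 4 of Timp3, both of Mmp2 and 2 of 3 of Adamts5. These 8 are among the 9 with an unadjusted p under 0.05 in limma. The move is taken relative to the difference itself, so a difference large for its spread moves less, and this count is not separate from those p-values. Over all probe sets, the 5 calls of the A array became 1 without the filter, 14 with array weights, 8 with the replicate block and 3 to 9 with a sample left out. The 2 of the B array became 1 without the filter, 0 without the trend (871 at an unadjusted p under 0.05), 4 with the block and 1 to 4 with a sample left out. The cause was not tested. The titles pair no hindlimb with a forelimb sample, so the block of consecutive numbers is only an alternative. Low signal over background leaves 5 of the 34 probe sets without a test.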

Other observations

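On the A array the 3 probe sets of other genes whose pattern over the 6 samples was most like that of Vcan 1427256_at, the brightest tested Vcan probe set there, belonged to Dcaf13, Psmb3, a proteasome subunit, and Ndufa9, a subunit of respiratory complex I. The root mean square difference of their centred log2 values from those of Vcan was 0.020, 0.020 and 0.021, where the median of 14108 probe sets was 0.202. The spread of Vcan itself about its own mean was 0.094, so the pattern being matched is a small one: from hindlimb 12, the highest with 5010.0, to hindlimb 26, the lowest with 4121.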
